A study of Mus musculus with 10 samples.

Results

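Transcription factor genes known for patterning the diencephalon and the eye were followed in RNA sequencing of mouse embryonic cortex at embryonic day 12. The 10 genes Gbx2, Tcf7l2, Lhx9, Irx1, Irx2, Irx3, Irx5, Barhl2, Olig3 and Rax were taken by symbol from a table of 24814 genes, and all 10 were found. Each of the 10 libraries of polyadenylated RNA came, per its label, from a separate animal. Controls (WT, 5 libraries) carried Emx1 Cre/+ and Zbtb7a +/+, and conditional knockouts (cKO, 5 libraries) Emx1 Cre/+ and Zbtb7a fl/fl, so the Cre driver is shared by both groups. Emx1-Cre acts in progenitors of the dorsal telencephalon, and other cells in a dissection keep the intact allele. Batches in the labels are litters: WT 1 and 2 with cKO 1 to 3 belong to litter 1, WT 3 and 4 with cKO 4 to litter 3, and the pair WT 5 and cKO 5 to litter 5.

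The diencephalon lies behind and below the telencephalon and forms the thalamus, pretectum and hypothalamus, while the eye grows out from its rostral part. The telencephalon and diencephalon are told apart early by transcription factors, among them Irx3 behind a boundary set with Six3, as worked out in chick and mouse. Gbx2 marks newborn thalamic neurons, Olig3 thalamic progenitors and Rax the eye field and hypothalamus. Several of these genes also act elsewhere in the head, for instance Irx3 and Irx5 in facial mesenchyme and surface ectoderm, and Lhx9 in early neurons of the telencephalon.

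The targeted gene Zbtb7a was at 7.20 to 12.5 TPM in WT and 3.50 to 5.96 TPM in cKO libraries, so the genotypes did not overlap, which was so for 0.282% of tested genes in either direction. TPM, a transcript abundance relative to all transcripts of a library, is scaled to transcript length, so levels of different genes can be compared, and it keeps no read depth. The cortical identity genes Emx1 (119 to 210 TPM) and Lhx2 (457 to 867 TPM) were high in every library. Litter 3 stood apart. The summed TPM of 10 cortex markers was 1164 to 1563 in litter 3 and 1781 to 2527 in the other libraries, and that of 14 mesenchyme markers was 523 to 1112 in litter 3 and 237 to 359 in the others. In bulk tissue, a change in the number of cells of a type and a change in RNA per cell cannot be told apart.

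The 10 genes fell over a wide range of levels. Lhx9, a LIM-homeodomain factor, had a mean of 21.2 ± 4.35 TPM (SD, n = 10), Tcf7l2, an HMG-box effector of Wnt signalling, 6.83 ± 1.37 TPM and Barhl2, a Bar-class homeodomain factor, 4.45 ± 2.26 TPM. The Iroquois homeodomain genes Irx3 and Irx5 followed at 2.29 ± 2.05 and 1.09 ± 1.20 TPM. The other 5 had means of 0.405 TPM for Rax, 0.358 for Irx1, 0.266 for Olig3, 0.213 for Gbx2 and 0.161 for Irx2. Lhx9 was the only member whose range over the libraries did not touch that of the next in this order, and each of the other neighbours overlapped. Tcf7l2 exceeded Barhl2, Barhl2 exceeded Irx3 and Irx3 exceeded Irx5 in 9 of 10 libraries each, whereas among the lowest 5 the order between neighbours held in 5 to 7 of 10 libraries.

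**Figure D1:**
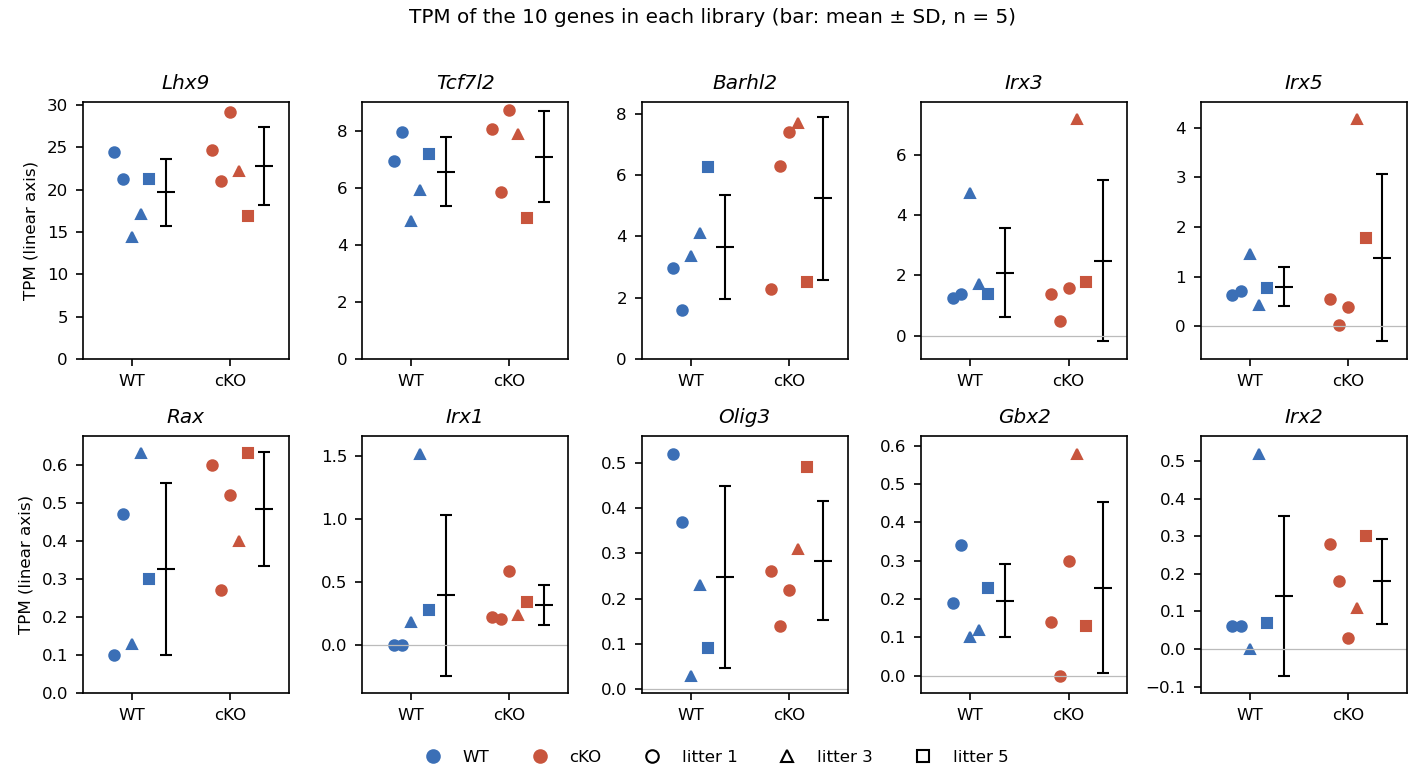
TPM on a linear axis for each of the 10 genes, with 1 point per library, coloured by genotype and shaped by litter, and black bars for the mean ± SD of 5 libraries. Points of WT and cKO overlap in all 10 panels, and the high Irx3 points, 4.74 and 7.19 TPM, are both triangles of litter 3.

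Gbx2, Olig3 and Rax, named above as markers of the thalamus, eye field and hypothalamus, were close to 0. Gbx2 was at 0.19, 0.34, 0.10, 0.12 and 0.23 TPM in WT 1 to WT 5 and at 0.14, 0, 0.30, 0.58 and 0.13 TPM in cKO 1 to cKO 5. Olig3 was at 0.52, 0.37, 0.03, 0.23 and 0.09 TPM in WT and at 0.26, 0.14, 0.22, 0.31 and 0.49 TPM in cKO. Both genes stayed under 1 TPM in all 10 libraries, and the genotypes overlapped. Rax, on chromosome 18, ranged from 0.10 to 0.63 TPM. Reads in the stretches that Gbx2 and Rax share with opposite-strand transcripts cannot be told apart unless counting used strand. The sources used here do not say whether it did. The transcript D130058E05Rik shares 946 bases with the Gbx2 locus and had 0 to 0.41 TPM, and Raxos1 shares 2250 bases with the Rax locus and had 0 to 0.28 TPM.

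Lists of other markers of the diencephalon and its neighbours held genes at several TPM as well as genes near 0. Of 8 further genes of the thalamus and habenula 4 passed the filter used for testing (at least 1 TPM in at least 5 libraries), and 2 stayed under 1 TPM in all libraries. Foxp2 was at 2.67 to 12.6 TPM, Dbx1 at 0.20 to 5.43 TPM, Prox1 at 1.11 to 3.87 TPM and Rora at 0.94 to 2.60 TPM, while the habenular gene Pou4f1 was at 0.13 to 0.32 TPM and Sox14 at 0 to 0.43 TPM. In a list of 12 pretectal and midbrain genes 8 stayed under 1 TPM in all libraries, with Pax7 at 0.04 to 0.76 TPM. The highest of that list were Tal1, at 2.91 to 10.6 TPM, and Gata2, at 0.39 to 4.05 TPM. Tal1 was highest in cKO 4 (10.62 TPM) and WT 3 (9.74 TPM), the 2 highest libraries for 4.89% of all tested genes. Whether these levels came from pretectal or midbrain cells was not tested. All 4 measured genes of the zona limitans and floor plate, Shh, Nkx2-2, Foxa1 and Foxa2, stayed under 1 TPM, with a summed TPM of 0.02 to 0.64. Of 9 hypothalamic genes 7 stayed under 1 TPM, while Pomc was at 1.94 to 5.78 TPM and Fezf1 at 0.55 to 7.98 TPM. In the eye list 7 of 9 genes stayed under 1 TPM, with the optic cup gene Six6 at no more than 0.03 TPM. The highest gene of the eye list was Dct, a melanin synthesis enzyme also known in telencephalic progenitors, at 11.1 to 27.2 TPM.

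Lhx9 and Tcf7l2, the genes at the highest levels, varied least and shared their highest and lowest libraries. Lhx9 (ENSMUSG00000019230, chromosome 1, 138825186 to 138848577 on GRCm38, minus strand) was at 24.48, 21.29, 14.37, 17.13 and 21.25 TPM in WT 1 to WT 5 and at 24.67, 21.01, 29.22, 22.19 and 16.87 TPM in cKO 1 to cKO 5. Tcf7l2 (ENSMUSG00000024985, chromosome 19, 55741820 to 55933654, plus strand) was at 6.94, 7.97, 4.83, 5.93 and 7.19 TPM in WT and at 8.05, 5.87, 8.71, 7.90 and 4.94 TPM in cKO. For both genes cKO 3 was the highest library and WT 3 and cKO 5 were the lowest, a pair that was lowest for 9.88% of all tested genes. Their highest library exceeded the lowest by 2.03 times for Lhx9 and 1.80 times for Tcf7l2. Of the 10 cortex markers, 2 had this pair as their lowest libraries.

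The tested genes with the library pattern closest to Lhx9 were Hmgxb3, Ubr1 and Acsl4, at root mean square differences of z-scores of log2(TPM + 1) of 0.164, 0.167 and 0.180 over 10 libraries, where the median over tested genes was 1.06. For Tcf7l2 they were the BMP co-receptor gene Rgmb (0.262), Fanci (0.304) and Otud4 (0.306), against a median of 1.10. These values describe likeness across libraries that share litter and dissection.

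The promoters of Lhx9 and Tcf7l2, which shared their highest and lowest libraries, and of Irx3, which did not, are shown for comparison, as 300 bases (250 before and 50 after the RefSeq start, GRCm38.p6). Capitals mark CpG dinucleotides. The windows are chr1:138842395-138842694 (minus strand) for Lhx9, chr19:55741560-55741859 (plus strand) for Tcf7l2 and chr8:91801605-91801904 (minus strand) for Irx3. The windows of Lhx9 and Irx3 lie at RefSeq starts inside the gene spans given here from GENCODE, not at the outermost annotated 5′ end.
Lhx9: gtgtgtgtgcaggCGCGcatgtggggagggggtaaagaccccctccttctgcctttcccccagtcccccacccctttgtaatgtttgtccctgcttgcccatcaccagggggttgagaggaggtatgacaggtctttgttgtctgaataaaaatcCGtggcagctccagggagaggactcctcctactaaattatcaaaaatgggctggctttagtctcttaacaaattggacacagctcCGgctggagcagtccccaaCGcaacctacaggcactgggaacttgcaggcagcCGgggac
Tcf7l2: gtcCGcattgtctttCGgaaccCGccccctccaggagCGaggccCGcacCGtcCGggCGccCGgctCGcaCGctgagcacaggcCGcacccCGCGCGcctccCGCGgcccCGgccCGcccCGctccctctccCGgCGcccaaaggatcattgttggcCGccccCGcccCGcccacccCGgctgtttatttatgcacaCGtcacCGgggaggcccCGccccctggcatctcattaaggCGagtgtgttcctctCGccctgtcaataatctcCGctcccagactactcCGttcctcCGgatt
Irx3: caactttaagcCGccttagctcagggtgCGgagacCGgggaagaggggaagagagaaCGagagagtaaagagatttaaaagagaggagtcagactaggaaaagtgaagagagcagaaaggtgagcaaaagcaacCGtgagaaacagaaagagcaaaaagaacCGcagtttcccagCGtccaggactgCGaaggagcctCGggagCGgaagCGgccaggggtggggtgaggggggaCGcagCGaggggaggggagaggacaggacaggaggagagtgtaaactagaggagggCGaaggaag
Lhx9 held 6 CpG, Tcf7l2 34 and Irx3 14, where the median of 32544 promoters of this length was 7. In none of the 3 windows was the TCF/LEF core CTTTGA found on either strand, nor the homeodomain core TAATTA, nor the Iroquois site ACANNTGT, the last 2 being palindromes. These motifs occur in 16.0%, 5.29% and 7.40% of all such promoters. In total 7 of the 10 genes matched the promoter table.

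Irx3 and Irx5, which lie 555.6 kb apart on chromosome 8 (91798525 to 91802067, minus strand, and 92357625 to 92376286, plus strand, on GRCm38), were high in the same library. Irx3 (ENSMUSG00000031734) was at 1.26, 1.37, 4.74, 1.73 and 1.38 TPM in WT 1 to WT 5 and at 1.37, 0.50, 1.57, 7.19 and 1.78 TPM in cKO 1 to cKO 5. Irx5 (ENSMUSG00000031737) was at 0.63, 0.71, 1.46, 0.43 and 0.77 TPM in WT and at 0.55, 0.03, 0.39, 4.17 and 1.78 TPM in cKO. Both genes were highest in cKO 4, as were Barhl2 and Gbx2 and 8.43% of all tested genes, and lowest in cKO 2, and WT 3 was the second highest for Irx3 and the third for Irx5. The high Irx3 libraries, cKO 4 and WT 3, were both of litter 3 and 1 of each genotype, and the other 8 libraries lay at 0.50 to 1.78 TPM, among them the third library of litter 3, WT 4. The antisense transcript Irx3os shares 1653 bases with the Irx3 locus and had 0 to 0.18 TPM.

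Litter was then tested with genotype held in the same model. Irx3 averaged 4.55 ± 2.73 TPM in litter 3 (SD, n = 3) and 1.21 ± 0.415 TPM in litter 1 (SD, n = 5), a ratio of 3.75. All 3 libraries of litter 3 lay above all 5 of litter 1, as did 7.34% of tested genes, and overlapped with litter 5. No member had all 3 above all 7 other libraries, which 2.86% of tested genes had. On the log2(TPM + 1) scale the difference was 1.28 (SE 0.33, 95% interval 0.55 to 2.02), where the median of all 13833 tested genes was -0.16, and the F test over the 3 litters passed (limma, Benjamini-Hochberg adjusted p = 0.0465). Irx3 was thus 1 of 4 tested members called, while 21.5% of all tested genes were called between litters. The call did not hold without cKO 4, where the difference was 0.84 (limma adjusted p = 0.267), without WT 3 (1.15, limma adjusted p = 0.138) or with no filter on low values (limma adjusted p = 0.117), and the adjusted p ran from 0.0215 to 0.267 over the alternatives.

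Irx5 passed 1 TPM in 3 libraries and was below the filter. Its mean was 2.02 ± 1.93 TPM in litter 3 (SD, n = 3) and 0.462 ± 0.269 TPM in litter 1 (SD, n = 5), and the difference on the log2(TPM + 1) scale was 0.97, or 0.35 without cKO 4. In the model with no filter its F test over the litters did not pass (limma adjusted p = 0.269). The remaining tested genes were not called between litters. The difference of litter 3 from litter 1 was -0.39 (SE 0.16) for Lhx9, -0.24 (SE 0.20) for Tcf7l2 and 0.45 (SE 0.41) for Barhl2 on the same scale (limma adjusted p = 0.171, 0.508 and 0.690). Without cKO 4 these values were -0.59, -0.49 and 0.21, without WT 3 Tcf7l2 was at -0.11, without WT 2 Barhl2 was at 0.23, and with quantile normalisation Lhx9 was at -0.16 and Tcf7l2 at -0.12.

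Many mesenchyme genes were highest in the libraries where Irx3 was highest, cKO 4 and WT 3. In cKO 4 and WT 3 the mesenchymal factor genes Twist1, at 32.2 and 32.8 TPM against 3.36 to 7.23 TPM elsewhere, Twist2, at 7.68 and 8.87 TPM against 0.23 to 1.27 TPM, and Alx1, at 12.2 and 3.82 TPM against 0.47 to 1.35 TPM, were far above the other 8 libraries. These 2 libraries were the highest for 9 of 13 tested mesenchyme markers and for 4.89% of all tested genes. The exceptions were Col1a2, Col3a1 and Lum, which were higher in WT 4 than in cKO 4, and Dcn. Dcn was at 11.17 TPM in cKO 4, near the low end of its range of 11.05 to 38.17 TPM. The summed TPM of the mesenchyme list was 1112 in WT 3 and 541 in cKO 4. It was 523 in WT 4, where Irx3 was at 1.73 TPM, and 241 in cKO 5, the second highest library for Irx5. Of the 13, the litter test called 10, all higher in litter 3 than in litter 1.

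The surface ectoderm list separated cKO 4 from WT 3. Its 8 genes summed to 23.5 TPM in cKO 4, 15.3 TPM in cKO 5, 10.8 TPM in WT 3 and 3.46 to 8.38 TPM in the other 7 libraries. The genes of the list differed in this. Krt8 was at 4.30 TPM in cKO 4 and 4.01 TPM in WT 3, and Epcam and Krt18 were highest in cKO 5, at 5.37 and 3.74 TPM. The basal keratin genes Krt5 and Krt14 were at 2.16 and 1.46 TPM in cKO 4 and listed at 0 in the other 9 libraries, and the junction gene Perp was at 4.64 TPM in cKO 4 and 2.98 TPM in cKO 5, the libraries that were also first and second for Irx5. Perp was the tested gene with the pattern closest to Irx5 (root mean square difference of z-scores 0.197, median over tested genes 1.46), followed by Cdc34 (0.296) and Galk1 (0.394). For Irx3 the closest were the sphingosine receptor gene S1pr3 (0.283), the imprinted H19 (0.287) and the glucose transporter gene Slc2a3 (0.292), with a median of 1.49. En1, a midbrain gene also known in mesenchyme and skin, was at 1.97 TPM in WT 3 and 0.87 TPM in cKO 4 and listed at 0 in the other 8. The part of these tissues in the Irx3 and Irx5 levels was not tested.

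**Figure D2:**
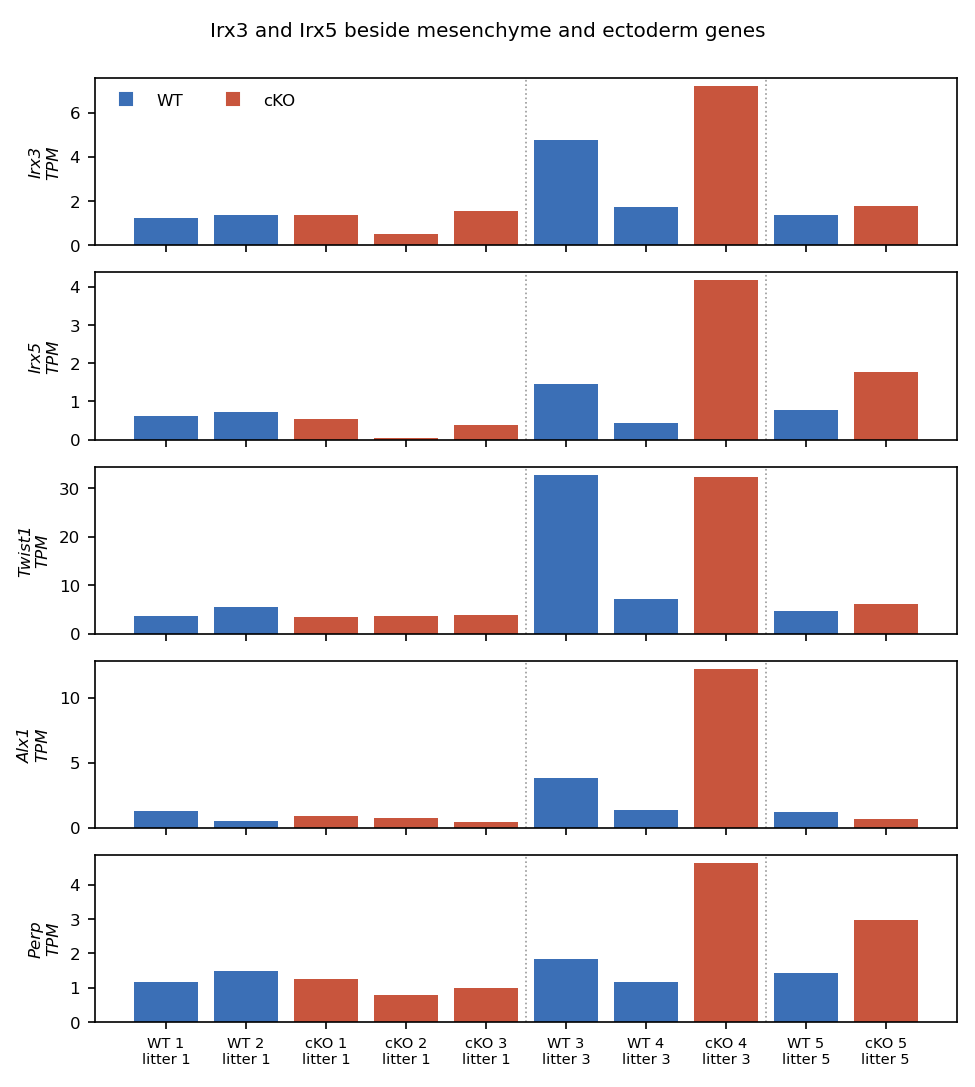
TPM on linear axes in each library, ordered by litter and coloured by genotype, for Irx3, Irx5, the mesenchyme genes Twist1 and Alx1, and the ectoderm gene Perp. WT 3 and cKO 4 are the highest bars for Irx3 (4.74 and 7.19 TPM), Twist1 and Alx1.

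Irx1 and Irx2, the other Iroquois genes, lie 665.1 kb apart on chromosome 13 and did not follow Irx3. Irx1 was at 1.52 TPM in WT 4 and at 0 to 0.59 TPM in the other libraries, and Irx2 was at 0.52 TPM in WT 4 and at 0 to 0.30 TPM in the others. WT 4 was therefore the highest library for both, and it was 4th for Irx3 and 8th for Irx5. Irx1 was listed at 0 in WT 1 and WT 2, and Irx2 in WT 3. Among other relatives of the 10 genes, Irx4 was at 0 to 0.70 TPM, Gbx1 at 0.07 to 0.35 TPM and Barhl1 at 0 to 0.44 TPM, and Irx6 was not analysed here. The Tcf7l2 relatives Tcf7l1 (29.6 to 70.9 TPM) and Lef1 (20.2 to 40.5 TPM) exceeded Tcf7l2 in every library and were lower in litter 3 than in litter 1, by log2 differences of -1.04 (limma adjusted p = 0.00938) and -0.65 (limma adjusted p = 0.0153), where 17.8% of all tested genes were called and lower in litter 3. Tcf7, the other relative, was at 4.64 to 8.61 TPM and was not called (0.07, limma adjusted p = 0.925).

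Barhl2 split the libraries across both genotypes and all 3 litters. It (ENSMUSG00000034384, chromosome 5, 106452523 to 106458166 on GRCm38, minus strand) was at 2.97, 1.62, 3.35, 4.10 and 6.25 TPM in WT 1 to WT 5 and at 2.30, 6.29, 7.42, 7.71 and 2.51 TPM in cKO 1 to cKO 5. The 4 libraries WT 5, cKO 2, cKO 3 and cKO 4 lay at 6.25 to 7.71 TPM and the other 6 at 1.62 to 4.10 TPM. The same 4 libraries were the highest for Dlx1, a homeodomain factor of the ganglionic eminences, at 29.9 to 65.3 TPM against 0.18 to 13.6 TPM, and for Gsx2, a progenitor factor of the lateral ganglionic eminence, at 5.25 to 11.4 TPM against 0 to 4.98 TPM. Of the 7 tested ventral telencephalon markers 4 had these libraries as their highest, and so had 0.614% of all tested genes.

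Within those libraries the order differed between Barhl2 and the ventral genes. WT 5 was the highest for Dlx1, at 65.3 TPM, and the lowest of the 4 for Barhl2, and WT 4, with 4.10 TPM of Barhl2, had 0.37 TPM of Dlx1. Calb2, a calcium-binding protein of early neurons, had the same 4 libraries on top, at 15.2 to 18.8 TPM against 6.15 to 12.2 TPM. So had Fezf1, a forebrain zinc finger repressor on the hypothalamus list, at 4.21 to 7.98 TPM against 0.55 to 2.60 TPM. Calb2 was 1 of 9 tested genes on a list for cortical hem and eminentia, and the only one of them with these libraries on top. Fezf1 was the only one of 2 tested genes on its list. The tested genes closest to Barhl2 were Nxph1 (0.383), Ndp (0.386) and Calb2 (0.419, root mean square difference of z-scores over 10 libraries, median over tested genes 1.36). The part of ventral tissue in the Barhl2 level was not tested.

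**Figure D3:**
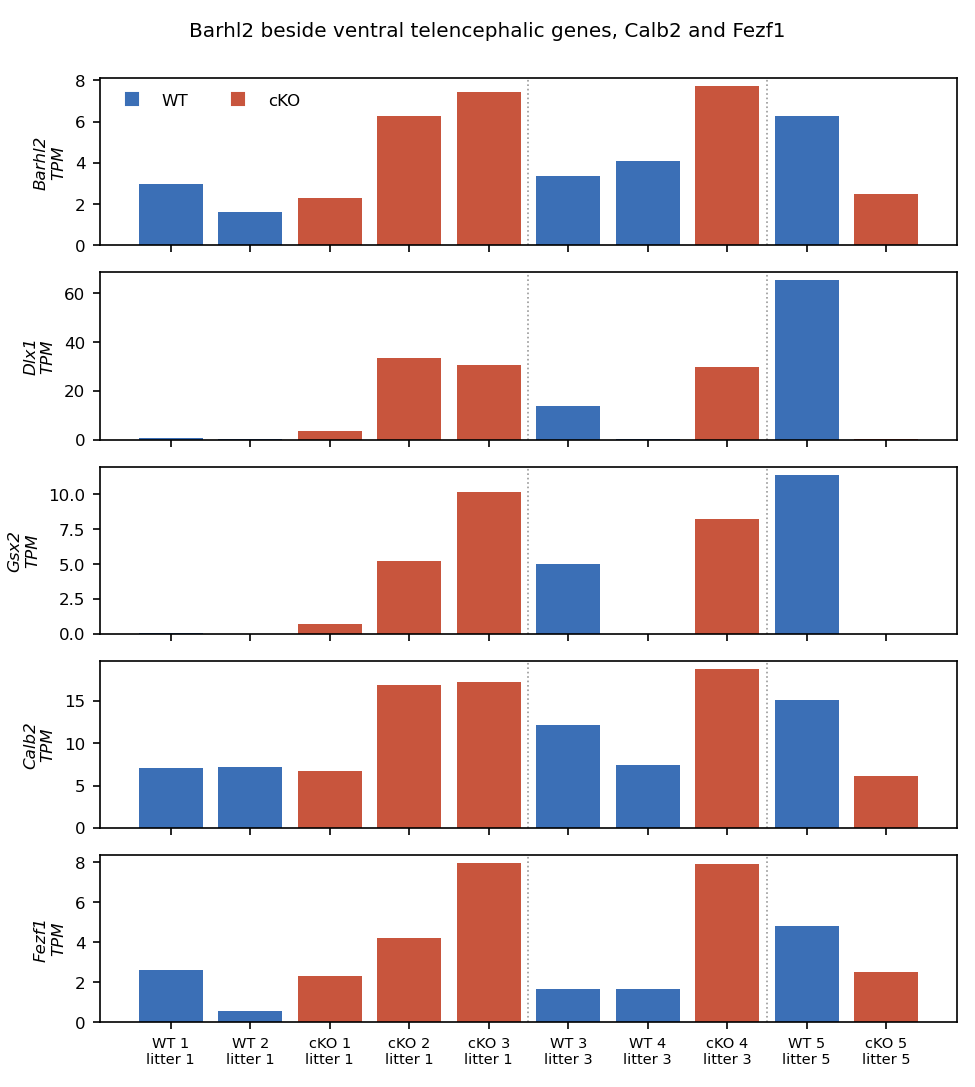
TPM on linear axes in each library, ordered by litter and coloured by genotype, for Barhl2, the ventral telencephalon genes Dlx1 and Gsx2, and Calb2 and Fezf1. The bars of cKO 2, cKO 3, cKO 4 and WT 5 are the 4 highest in every panel.

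The comparison of cKO with WT asks whether these regulators differ when Zbtb7a, a BTB zinc finger repressor, is deleted in the dorsal telencephalic lineage. None of the 4 tested genes was called with litter in the model (limma, adjusted p = 1.00 for each), where 5 of 13833 genes, or 0.0361%, were called in all and 1 of them, or 0.00723%, was higher in cKO, 324 had an unadjusted p under 0.05, and the median difference was -0.01. Barhl2 was at 3.66 ± 1.71 TPM in WT and 5.25 ± 2.65 TPM in cKO (SD, n = 5 each), a difference of 0.47 on the log2(TPM + 1) scale (SE 0.36, 95% interval -0.33 to 1.27). Irx3 was at 2.10 ± 1.49 and 2.48 ± 2.68 TPM, a difference of 0.27 (95% interval -0.37 to 0.91). Lhx9, at 19.7 ± 3.96 and 22.8 ± 4.57 TPM, differed by 0.12 (-0.19 to 0.43), and Tcf7l2, at 6.57 ± 1.22 and 7.09 ± 1.61 TPM, by 0.04 (-0.34 to 0.42). For Lhx9, Tcf7l2 and Irx3 the interval excludes a change of more than 2-fold on this scale, for Barhl2 it does not exclude a 2-fold rise. Irx3 was low, and for low genes this scale makes a change look smaller than it is.

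The difference between genotypes took opposite signs in different litters for each tested gene. Barhl2 was higher in cKO by 0.86 within litter 1 and 0.89 within litter 3 and lower within litter 5 (-1.05). Irx3 was at -0.15, 1.05 and 0.22 in litters 1, 3 and 5. Lhx9 was at 0.11, 0.47 and -0.32, and Tcf7l2 at 0.00, 0.49 and -0.46. An interaction term compared the genotype difference in litter 1 with that in litters 3 and 5 pooled. It was not called for any of the 4 (limma adjusted p = 0.999 for each). Nor was it called for any of the 13833 genes, of which 687 had an unadjusted p under 0.05. For Barhl2, Lhx9 and Tcf7l2 the differences in litters 3 and 5 had opposite signs and offset each other when pooled. For these genes the term therefore cannot decide whether the genotype difference changed between litters 3 and 5. Without cKO 4, the only cKO library of litter 3, the differences of Irx3, Lhx9 and Tcf7l2 turned to -0.04, -0.01 and -0.13, none of them called.

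The 6 genes below the filter were read with no filter, and none was called (limma, adjusted p = 0.999 for each, where 0.0161% of 24814 genes were called). Rax was at 0.326 ± 0.225 TPM in WT and 0.484 ± 0.149 TPM in cKO (SD, n = 5 each) and Irx5 at 0.800 ± 0.391 and 1.38 ± 1.69 TPM, and the ranges overlapped. Irx1, Irx2, Gbx2 and Olig3 differed by 0.03 to 0.09 on the log2(TPM + 1) scale. With a pseudocount of 0.1 TPM the difference became 0.80 for Irx1, 0.49 for Irx2 and 0.61 for Rax, and the mean TPM of Irx1 ran the other way, at 0.396 in WT and 0.320 in cKO. No gene of the marker lists for other regions and cell types was called between genotypes in the filtered model. None of the 10 was among the 7 genes of the authors' deposited table of cKO against WT.

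**Figure D4:**
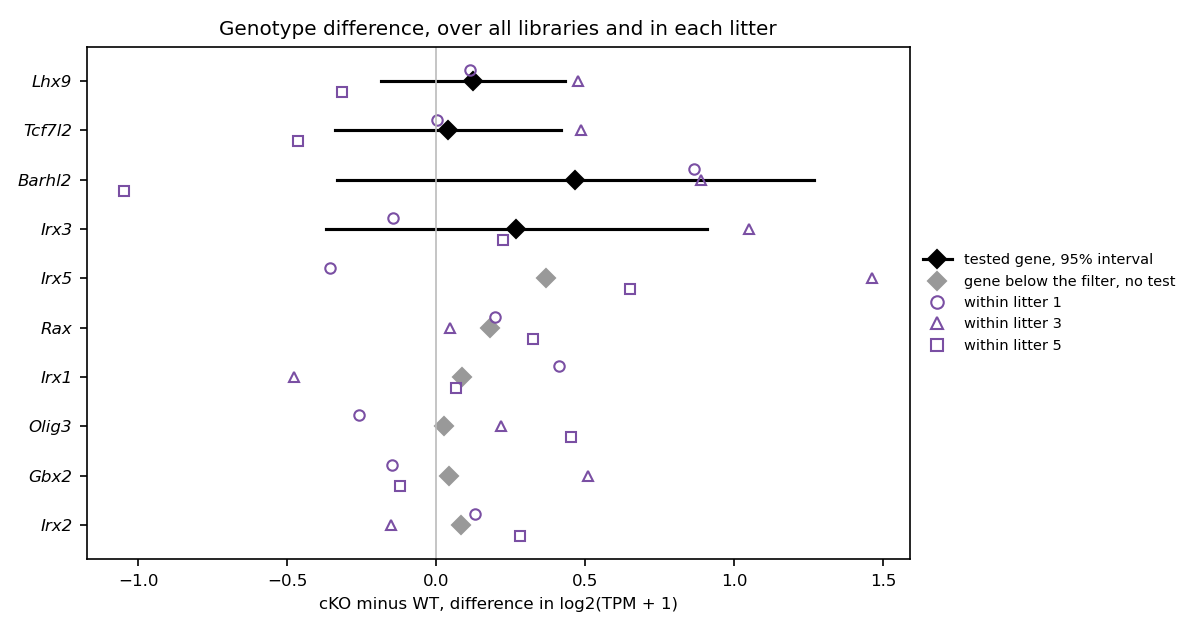
Difference of cKO from WT in log2(TPM + 1) for each gene, as diamonds for the model over all 10 libraries (black with 95% intervals for the 4 tested genes, grey for the 6 genes below the filter) and as open symbols within each litter. All 4 intervals include 0, and the litters fall on both sides of 0 for every tested gene.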

How the data were processed

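Polyadenylated RNA of 10 cortices of embryonic day 12 was measured as TPM. The authors deposited TPM with 2 decimals per gene and library, and cutadapt, featureCounts and the build mm10 are named without roles or versions in the submitters' processing notes. The tool that made the TPM and any use of strand are not given in the sources used here. Read depth cannot be had from TPM and is unknown, so no counting intervals are given. Another deposited table holds the authors' log2 fold changes and adjusted p-values for 7 genes, and was read only to see whether it held any of the 10 genes. The base of that log is assumed to be 2. Of the TPM columns, 5 that match no sample's labels were not used.

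Groups and litters came from the labels. Of 24814 gene IDs 24774 matched GENCODE M21, and 26 symbols turned to dates by a spreadsheet were restored by ID. Genes with at least 1 TPM in at least 5 libraries (13833) were tested with limma 3.58.1 (R 4.3.3) on log2(TPM + 1), modelled on litter plus genotype, with trended empirical Bayes moderation, two-sided tests and Benjamini-Hochberg adjustment over all tested genes, and called at an adjusted p under 0.05. For low genes this scale makes a change look smaller than it is. Litter was tested by an F test in the same model, and the scripts were tested on simulated data. Alternatives were other pseudocounts, filters and scalings, no litter term, the library number within each genotype as a block, and leaving out libraries or litters.

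The 10 genes and all marker lists were chosen with earlier results of these data known. Of each list, the 4 genes with the highest mean and the gene with the largest ratio between libraries could be named, with the 3 genes most like each member with a mean of at least 1 TPM. Pou4f1, Sox14, Six6, Twist1, Alx1, En1, Gsx2, Krt5, Krt14, Irx4, Gbx1 and Barhl1 fall outside this rule and were named after their values were seen. Promoters came from RefSeq on GRCm38.p6.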

Additional observations from a re-analysis of the deposited data

Results flagged for a closer look

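In 4 of 20 groups of 5 libraries, the gap of 1 library to the next exceeded 0.71 of the group's range, the critical value of Dixon's test. Chance flags about 1 in 20 groups of like libraries, but each genotype here mixes 3 litters, and Irx1 and Irx2 were near 0 in most libraries, so that share is not a fair measure here. Irx3 was at 4.74 TPM in WT 3, where the next WT library had 1.73 TPM, and at 7.19 TPM in cKO 4, where the next cKO library had 1.78 TPM. Irx1 was at 1.52 TPM in WT 4, where the next WT library had 0.28 TPM, and Irx2 at 0.52 TPM in the same library, where the next had 0.07 TPM. All 3 libraries were of litter 3.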

How the results depend on the processing

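No member was called between genotypes in any of the 21 alternative settings where it had a p. Counted as pairs of a gene and a setting, 87 gave a p, the smallest being 0.887 for Barhl2 (limma adjusted p). The sign turned for Tcf7l2 without litter 3 or without cKO 4 (-0.13 each), without WT 3 (-0.02) and without cKO 3 (-0.00), for Lhx9 without litter 3 or cKO 4 (-0.014 each), and for Irx3 with litter 1 only (-0.15) and without litter 3 or cKO 4 (-0.038 each), and the cause was not tested. Among untested genes it also turned for Irx5 (-0.36 with litter 1 only, -0.06 without cKO 4), Gbx2 (-0.15 with litter 1 only, -0.14 without cKO 4, -0.01 with a pseudocount of 0.1 TPM), Olig3 (-0.26 with litter 1 only, -0.09 without WT 5 or cKO 5, -0.05 without cKO 4, -0.02 without WT 3) and Irx1 (-0.0015 without cKO 3). Leaving out each library gave -0.13 to 0.17 for Tcf7l2, -0.01 to 0.24 for Lhx9, -0.04 to 0.42 for Irx3 and 0.26 (without WT 2) to 0.87 (without WT 5 or cKO 5) for Barhl2. Of all genes, 5 were called between genotypes, against 3 with a filter at 5 TPM, 2 without litter 3, 2 without litter 5, 1 with litter 1 only and 2 to 5 with each library left out. With the library number within each genotype as a replicate block in place of litter 2 genes were called. The deviations of same-numbered libraries correlated at 0.27, 0.08, -0.29, 0.30 and -0.17, so the numbers did not pair the libraries.

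The litter call of Irx3 was lost in 10 of 17 alternatives, among them a pseudocount of 0.1 TPM (1.77, limma adjusted p = 0.0667). The filter at 5 TPM, also among the 17, gave Irx3 no p. Leaving out each library gave 0.84 to 1.66 (limma adjusted p = 0.0225 to 0.267). The count of genes called between litters was 2975, against 1736 with no filter, 4522 without litter 5 and 1272 to 4018 with each library left out (1360 without WT 1, 1300 without WT 2, 1272 without WT 3, 1718 without WT 4 and 1641 without cKO 1). Of the called genes 17.0% were higher in litter 3, against 45.2% with quantile normalisation, which moved the median difference of litter 3 from litter 1 from -0.16 to -0.01, and Irx3 stayed called there. The interaction called 0 genes, against 1 with no filter, 21 without litter 3, 3 without litter 5 and 0 to 21 with each library left out.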
